A study of Mus musculus with 6 samples.

Results

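The 9 genes described here mark T cells of the type 17 and gamma-delta kinds: *Il23r*, *Il17re*, *Ccr6*, *Il1r1*, *Zbtb16*, *Sox13*, *Cd163l1*, *Trdc* and *Tcrg-C1*. They were named from a list of 53379 gene identifiers to ask whether *Il23r* and *Il17re*, which were selected on their read counts in these groups, varied with the other 7 across the 6 mice. The difference of these 2 genes between the groups is therefore a description, and no test of it is given. The cells were T follicular helper (Tfh) cells, the CD4+ T cells that help B cells in germinal centres, sorted from spleen as live TCRβ+CD4+CXCR5+PD1+ cells. The mice were age-matched females, all immunized with NP-CGG (a hapten on chicken gamma globulin) and taken a week later. The paper's general methods give the immunization in the adjuvant CFA. *Prdm1*-CKO mice (n = 3) carried *Prdm1* fl/fl with CD11c-Cre, which the authors describe as deleting *Prdm1* in dendritic cells. The cells sequenced were Tfh and not dendritic cells. CTL mice (n = 3) were *Prdm1* fl/fl without Cre or *Prdm1* +/+ with CD11c-Cre, and no label gives the genotype of a particular CTL mouse. The labels call the second group KO in the titles and KD in the genotype field. *Prdm1* in Tfh was at 28.9, 29.97 and 27.5 CPM in CTL and at 30.2, 30.8 and 30.9 CPM in *Prdm1*-CKO mice, and these cells do not check the deletion. CPM is the count of a gene scaled to the size of its library, here with TMM factors.

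IL-23R joins the shared chain IL-12Rβ1 to bind IL-23, a cytokine that maintains IL-17-producing lymphocytes and signals through STAT3. IL-17RE joins IL-17RA to bind IL-17C. CCR6, the receptor of the chemokine CCL20, and IL-1R1, the signalling receptor of IL-1, are carried by many type 17 cells, while PLZF (*Zbtb16*) and SOX13 are transcription factors of innate-like and gamma-delta T cells. *Trdc* and *Tcrg-C1* encode constant regions of the delta and gamma chains of the T cell receptor (TCR), whereas Tfh cells are alpha-beta T cells.

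The start-site sequences of the receptor genes are shown because IL-23 signals through STAT3, which reads TTCNNNGAA, and because AGGTCA is the core site of many nuclear receptors. The sequences are from RefSeq (GRCm38.p6), each 250 bases before to 50 bases after the start, on the strand of the gene, with matches to either motif on either strand in capitals. RefSeq windows were matched for 6 of the 9 genes. *Zbtb16*, *Trdc* and *Tcrg-C1* had no entry. The windows printed are chr6:67491806-67492105 (minus strand) for *Il23r*, chr6:113458521-113458820 (plus strand) for *Il17re* and the first of 2 windows, chr17:8235793-8236092 (plus strand), for *Ccr6*.
Il23r: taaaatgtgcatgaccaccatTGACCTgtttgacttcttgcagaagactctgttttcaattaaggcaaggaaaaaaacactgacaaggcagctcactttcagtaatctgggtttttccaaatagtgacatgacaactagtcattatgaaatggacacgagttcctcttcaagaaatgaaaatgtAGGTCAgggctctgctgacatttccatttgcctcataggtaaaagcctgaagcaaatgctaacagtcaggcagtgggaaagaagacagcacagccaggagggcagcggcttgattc
Il17re: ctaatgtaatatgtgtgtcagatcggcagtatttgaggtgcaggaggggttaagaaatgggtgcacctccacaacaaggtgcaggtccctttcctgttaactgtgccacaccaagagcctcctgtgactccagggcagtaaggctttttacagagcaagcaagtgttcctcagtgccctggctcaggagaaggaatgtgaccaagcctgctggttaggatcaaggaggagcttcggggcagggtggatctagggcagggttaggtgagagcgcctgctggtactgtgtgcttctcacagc
Ccr6: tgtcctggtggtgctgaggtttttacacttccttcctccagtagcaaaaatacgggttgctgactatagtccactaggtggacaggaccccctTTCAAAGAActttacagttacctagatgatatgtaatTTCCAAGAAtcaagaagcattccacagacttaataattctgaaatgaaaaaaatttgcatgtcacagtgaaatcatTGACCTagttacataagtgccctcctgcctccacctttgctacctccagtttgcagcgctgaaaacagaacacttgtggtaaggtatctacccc
*Il23r* held AGGTCA at -229 (on the opposite strand) and at -66, and no TTCNNNGAA. The window of *Il17re* held neither motif. *Ccr6* held AGGTCA at -44 (on the opposite strand) and TTCNNNGAA at -157 and -120. Among the other windows, *Sox13* held TTCNNNGAA at -212, and *Cd163l1*, both windows of *Il1r1* and the second window of *Ccr6* held neither. Of all 32851 windows of this length, 16.3% held AGGTCA and 8.30% held TTCNNNGAA. A match is a description of the letters and was not tested as a binding site.

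The libraries held from 7147601 to 16973392 counts, and 3 counts, taken as the floor, stand for 0.169 to 0.444 CPM. This floor covers counting error only. CTL replicate 2 stood apart, with a mean correlation of log2 CPM of 0.875 with the other libraries, against 0.923 to 0.944 for the rest. It also had the fewest genes with a count, 16650, against 18480 in CTL replicate 3, the shallowest library, and 19934 to 21501 in the rest. Its zeros may therefore reflect more than its total count. The 10 Tfh markers were counted in every library and summed to between 1802 and 2487 CPM, with *Cxcr5* between 254 and 477 CPM. Of the 9 genes, 5 passed the expression filter and were among the 14555 genes tested. *Il23r*, *Il17re*, *Sox13* and *Cd163l1* did not pass it.

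*Il23r* and *Il17re* were close to absent in CTL Tfh and low but present in Tfh of every *Prdm1*-CKO mouse. *Il23r* (ENSMUSG00000049093.9, chr6:67422932-67491855 in GRCm38, minus strand) had 1, 0 and 0 counts in CTL replicates 1 to 3, against 10, 22 and 14 in *Prdm1*-CKO replicates 1 to 3. On the CPM scale these were 0.0685, 0 and 0 against 0.563, 2.24 and 0.959, with means of 0.0228 ± 0.0396 and 1.25 ± 0.875 (SD, n = 3 each). *Prdm1*-CKO replicate 2 was the highest, and the lowest *Prdm1*-CKO mouse lay above the highest CTL mouse. The difference in mean level was 1.23 CPM, and 0.738 CPM without *Prdm1*-CKO replicate 2. The summed counts, 46 against 1, gave a ratio of 32.5 after scaling. This ratio rests on 1 CTL count and is very imprecise, and no interval is given, as the gene was chosen on this difference. In bulk RNA, fewer cells of a type and less RNA per cell cannot be told apart.

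*Il17re* (ENSMUSG00000043088.16, chr6:113458484-113470758, plus strand) was counted 3, 0 and 0 times in CTL Tfh and 8, 32 and 46 times in *Prdm1*-CKO Tfh. The levels were 0.206, 0 and 0 CPM against 0.451, 3.25 and 3.15 CPM, and the means were 0.0685 ± 0.119 and 2.28 ± 1.59 CPM (SD, n = 3 each). *Prdm1*-CKO replicates 2 and 3 were high and replicate 1 was the lowest of its group, at 8 counts against 3 in CTL replicate 1. The summed counts, 86 against 3, gave a ratio of 20.2 after scaling, which rests on 3 CTL counts and is likewise imprecise. With every library thinned to the total of the smallest, *Il23r* had 1, 0 and 0 counts against 6, 13 and 8, and *Il17re* had 2, 0 and 0 against 5, 23 and 26. The groups did not overlap for either gene after thinning, which is no support for a separation on which both were chosen. These counts may overstate the number of fragments: each library had more genes with exactly 2 counts (799 to 1678) than with exactly 1 (626 to 1311), and the counting of paired mates, as 1 fragment or separately, is not given in the sources used here.

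Both genes were thus separated between the groups, by the choice that brought them here, and none of the other 7 genes was. Of all 26045 genes with a count in some library, 4.15% had the whole *Prdm1*-CKO group above the whole CTL group and 2.8% had it below, and among the genes tested these shares were 4.56% and 3.86%. The count of separated genes was 2 of 9 above and 0 of 9 below, and nothing is read from the 2. Without CTL replicate 2, 6.49% of all genes were above and 7.13% below, and *Zbtb16* was among those below. Without CTL replicate 1, *Ccr6* was among the 7.52% of all genes below. The edgeR quasi-likelihood test called 0 of the 5 tested genes after Benjamini-Hochberg adjustment, and 0% of all genes tested in either direction. At an unadjusted p under 0.05, edgeR placed 0.928% of all genes tested higher and 1.42% lower, and 0 of the 5. DESeq2 called 7 genes higher and 2 lower over all genes at an adjusted p under 0.05, and 264 and 417 unadjusted.

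**Figure D1:**
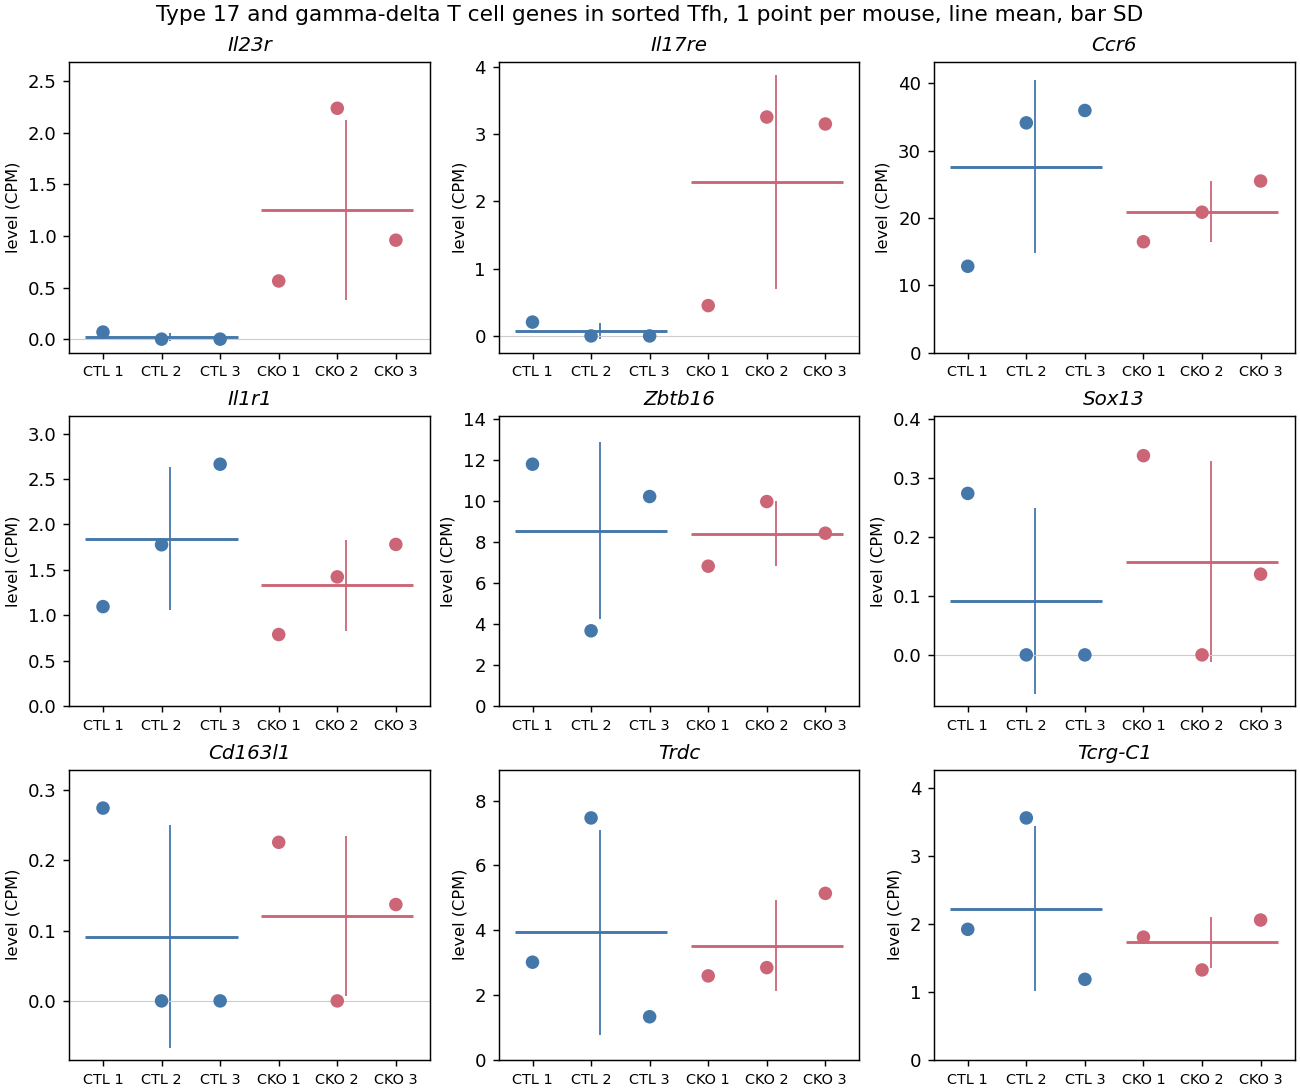
Level in CPM (vertical axis, its own scale in each panel) of the 9 genes in each of the 6 mice (horizontal axis, CTL blue and *Prdm1*-CKO red), with the group mean as a horizontal line and the SD as a vertical bar. *Il23r* and *Il17re* separate the groups, and the groups overlap in each of the other 7 panels.

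The receptor genes *Ccr6* and *Il1r1* were present in both groups, and the groups overlapped. *Ccr6* (on chromosome 17) was the most abundant, at 12.8, 34.1 and 36.0 CPM in CTL and 16.5, 20.8 and 25.5 CPM in *Prdm1*-CKO mice. CTL replicate 1 was the lowest of the 6 mice and CTL replicates 2 and 3 were the highest. The log2 fold change was -0.39 (standard error 0.40, edgeR adjusted p = 0.996), and it ranged from -0.76 without CTL replicate 1 to -0.15 without CTL replicate 3. *Il1r1* (chr1:40225080-40317257, plus strand) was at 1.10, 1.78 and 2.66 CPM in CTL and at 0.789, 1.42 and 1.78 CPM in *Prdm1*-CKO mice. Its groups overlapped, with a log2 fold change of -0.46 (standard error 0.66, edgeR adjusted p = 0.996), which ranged from -0.75 without CTL replicate 1 to -0.10 without CTL replicate 3. It lay on 14 to 26 counts per library, which limits the precision of its fold change.

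The groups overlapped for both transcription factors, and *Sox13* was on too few counts to judge a difference. *Zbtb16* (chr9:48654297-48836222, minus strand), the PLZF gene of innate-like T cells, was at 11.8, 3.67 and 10.2 CPM in CTL and at 6.82, 9.96 and 8.42 CPM in *Prdm1*-CKO mice. CTL replicates 1 and 3 were the highest of the 6 mice and CTL replicate 2 the lowest. Its log2 fold change was -0.03 (standard error 0.47, edgeR adjusted p = 0.998), and -0.40 without CTL replicate 2. *Sox13* (chr1:133382303-133424377, minus strand) was counted 4, 0 and 0 times in CTL and 6, 0 and 2 times in *Prdm1*-CKO Tfh. It was above the floor in replicate 1 of each group only, and these were the deepest library of each group. The scavenger receptor gene *Cd163l1* (chr7:140218267-140231145, plus strand), known on IL-17-producing gamma-delta T cells, had 4, 0 and 0 counts against 4, 0 and 2. Both genes had 0 counts in *Prdm1*-CKO replicate 2, and a count of 0 there allows up to 0.305 CPM. After scaling, the ratio of summed counts was 1.41 (95% exact counting interval 0.378 to 6.41) for *Sox13* and 1.06 (0.251 to 5.10) for *Cd163l1*. These intervals cover counting error only and leave out the spread between mice.

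The constant genes of the gamma-delta TCR were counted in all 6 mice, and the groups overlapped. *Trdc* (chr14:54142851-54148868, plus strand) was at 3.01, 7.46 and 1.33 CPM in CTL and at 2.59, 2.85 and 5.14 CPM in *Prdm1*-CKO mice. The highest and the lowest of the 6 mice were CTL replicates 2 and 3. Its log2 fold change was -0.16 (standard error 0.68, edgeR adjusted p = 0.996), and it was 0.66 without CTL replicate 2. The exons of *Trdc* overlap those of *Trdv5* and of the antisense gene *Gm43434* on the opposite strand, and without a stated strand setting their reads cannot be told apart. *Tcrg-C1* (chr13:19214103-19217024, plus strand) was at 1.92, 3.55 and 1.18 CPM in CTL and at 1.80, 1.32 and 2.05 CPM in *Prdm1*-CKO mice. The *Prdm1*-CKO mice lay inside the range of the CTL mice, and the log2 fold change was -0.36 (standard error 0.62, edgeR adjusted p = 0.996), or 0.13 without CTL replicate 2. Of the distinct 25-base stretches of its transcript, 58.4% also occur in other genes, with 43.2% of all stretches in *Tcrg-C2*, so its counts are uncertain. For the other 8 genes this share was at most 6.84%.

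**Figure D2:**
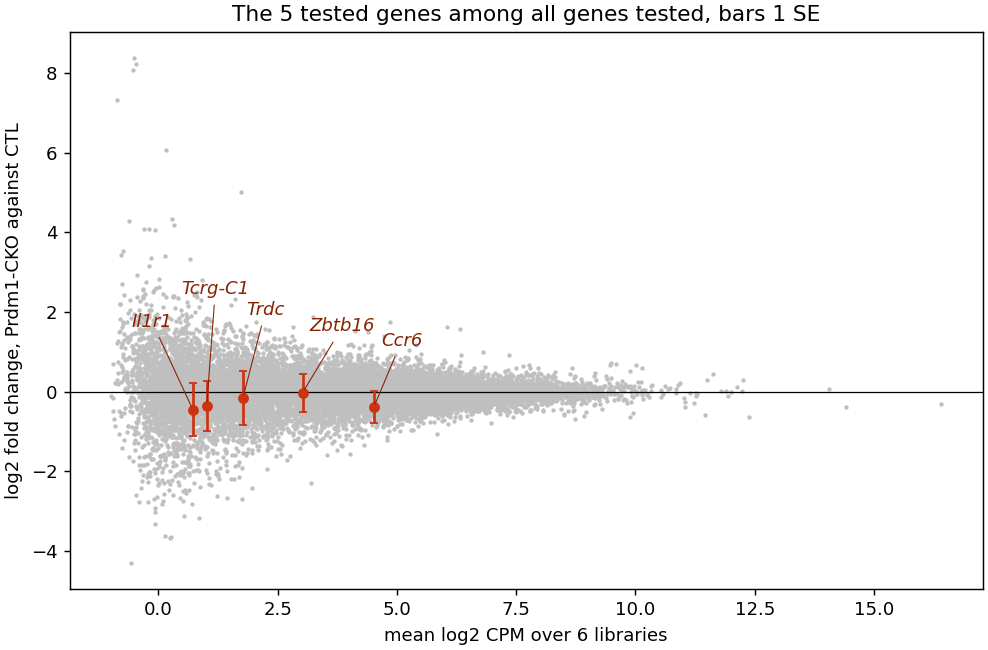
Log2 fold change of *Prdm1*-CKO against CTL (vertical axis) by mean log2 CPM over the 6 libraries (horizontal axis) for the 14555 genes tested (grey) and the 5 tested genes of the set (red, bars 1 standard error). The 5 genes lie between -0.46 and -0.03, inside the spread of genes of like level.

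The remaining gamma and delta segments were not used to choose the genes and were summed for a single test. The 19 segments other than *Trdc* and *Tcrg-C1*, 17 of them with a count, summed to 13.8, 11.1 and 18.5 CPM in CTL and 10.8, 10.3 and 19.7 CPM in *Prdm1*-CKO mice. The groups overlapped, with a log2 ratio of -0.13 (two-sided exact permutation p = 0.7, where 3 against 3 mice cannot give less than 0.1). Without CTL replicate 2 the log2 ratio was -0.30, and without CTL replicate 3 it was 0.07. With the *Trgv* and *Trgj* genes also summed, it was -0.21 (exact permutation p = 0.6). *Tcrg-C2* was the most abundant constant gene, at 4.59, 6.75 and 8.14 CPM against 3.55, 1.73 and 8.01 CPM. *Tcrg-C4* had 34, 0 and 28 counts against 44, 33 and 82, and its 0 in CTL replicate 2 fell in the mouse with the highest *Trdc*. Constant genes of the gamma and delta chains summed to 0.598%, 0.868% and 0.602% of those of the alpha and beta chains in CTL and to 0.508%, 0.409% and 0.991% in *Prdm1*-CKO mice. The lowest of these shares was in *Prdm1*-CKO replicate 2 and the highest in *Prdm1*-CKO replicate 3. Their relation to the *Il23r* and *Il17re* levels was not tested.

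The variable segments were on few counts. *Tcrg-V6*, the V gene of a type 17 gamma-delta subset, had 2, 0 and 0 counts (CTL) against 4, 1 and 6 (*Prdm1*-CKO). *Tcrg-V4* had 14, 2 and 2 against 12, 1 and 16, and *Tcrg-V1* had 2, 7 and 1 against 4, 4 and 3. *Tcrg-V7* was at 0 throughout CTL and was counted 3, 4 and 3 times in *Prdm1*-CKO Tfh, which is at or just past the floor. *Tcrg-V5* was counted in *Prdm1*-CKO replicate 1 only, with 4 counts, while *Tcrg-V3* had 6, 0 and 1 counts and *Tcrg-C3* had 9, 0 and 0 counts in CTL and 0 in all *Prdm1*-CKO mice. *Trgv2*, *Trdv1* and *Trdv2-2* were counted in every mouse, from 9 to 57 counts, and *Trgj2* from 2 to 9. *Trgj4* had up to 6 counts, and *Trdv4* had 0, 0 and 2 counts against 6, 0 and 2.

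**Figure D3:**
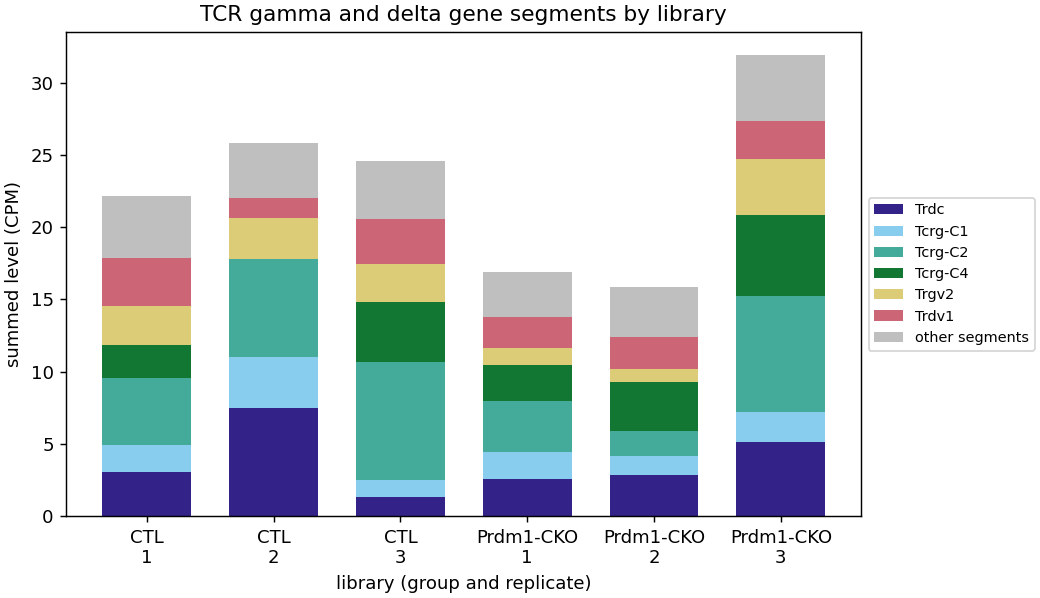
Summed level in CPM (vertical axis) of the gamma and delta TCR segments in each of the 6 libraries (horizontal axis), split by colour into *Trdc*, *Tcrg-C1* and 4 other segments, with the rest in grey. The lowest sum is in *Prdm1*-CKO replicate 2 and the highest in *Prdm1*-CKO replicate 3, so the *Prdm1*-CKO mice span the CTL mice.

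Within the *Prdm1*-CKO mice, *Il23r* and *Il17re* ranked alike in CPM, with replicate 2 above 3 above 1. For *Il17re*, replicates 2 and 3 were nearly level at 3.25 and 3.15 CPM. After thinning, its counts of 23 and 26 put replicate 3 above replicate 2. Of the 5 tested genes of the set, 1, *Zbtb16*, had the order 2 above 3 above 1, and 20.7% of all genes tested did. *Ccr6*, *Il1r1* and *Trdc* were highest in replicate 3 and lowest in replicate 1, *Sox13* and *Cd163l1* were highest in replicate 1 and at 0 in replicate 2, and *Tcrg-C1* was highest in replicate 3 and lowest in replicate 2. The order of 3 mice cannot be tested as a relation. Nor is a correlation over the 6 mice given, since *Il23r* and *Il17re* fall into separate clusters by group. The 2 receptor genes were also not in 1 proportion: *Il17re* had 0.8, 1.45 and 3.29 counts for each count of *Il23r* in *Prdm1*-CKO replicates 1 to 3. Among CTL mice, *Il23r*, *Il17re*, *Sox13* and *Cd163l1* were all counted in replicate 1 alone, the deepest of the CTL libraries.

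Per kilobase of exon, the order of the mean levels in *Prdm1*-CKO Tfh was *Ccr6* (9.02 ± 1.94 CPM per kb), *Tcrg-C1* (1.87 ± 0.403), *Zbtb16* (1.59 ± 0.298), *Trdc* (0.912 ± 0.363), *Il23r* (0.504 ± 0.352), *Il17re* (0.389 ± 0.271), *Il1r1* (0.209 ± 0.0789), *Sox13* (0.0367 ± 0.0394) and *Cd163l1* (0.0314 ± 0.0295; SD, n = 3). Neighbours in this order overlapped between mice, except *Ccr6* above *Tcrg-C1* and *Il1r1* above *Sox13*. In CTL Tfh the first 4 places were the same and *Il1r1* came next, while *Il17re* (0.0117 ± 0.0202 CPM per kb) and *Il23r* (0.00918 ± 0.0159 CPM per kb) were last. In CTL mice, too, *Ccr6* lay clear of *Tcrg-C1*, *Il1r1* lay clear of *Cd163l1*, and the other neighbours overlapped. The partner chains, which were picked after their values were seen, put these levels in scale. *Il23r* per kb was 1.69%, 6.73% and 3.10% of *Il12rb1* in the *Prdm1*-CKO mice, and *Il17re* was 0.178%, 1.66% and 1.31% of *Il17ra*. *Il12rb1* itself was at 54.3, 51.1 and 63.8 CPM in CTL and 54.9, 54.8 and 51.1 CPM in *Prdm1*-CKO mice, with overlapping groups.

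In a list of 10 type 17 genes, which holds 4 of the set, 0 of the 4 tested genes were called by edgeR in either direction. *Rora*, a nuclear receptor gene, was at 54.9 to 101 CPM in CTL and 53.5 to 88.4 CPM in *Prdm1*-CKO mice. The cytokine genes of type 17 cells were at or near 0 in all libraries. *Il17a* had 0 counts in each of the 6 mice, which allows up to 0.444 CPM in the shallowest library. *Il17f* had 6 counts in CTL replicate 3, *Il22* had 6 counts in *Prdm1*-CKO replicate 2 and *Ccl20* had 6 counts in CTL replicate 1, each with 0 in the other 5 mice.

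Among 12 gamma-delta T cell genes, 4 of them in the set, edgeR called 0 of the 6 tested. Of the 6, 3 had positive log2 fold changes, beside 51.1% of all genes tested. Their median was 0.10 against 0.01 for all genes tested. The most abundant were *Etv5*, *Blk*, *Tcrg-C2* and *Trdc*. *Blk*, a kinase of gamma-delta T cells that B cells also express, was at 8.02, 4.50 and 1.33 CPM against 10.3, 5.69 and 15.6 CPM, a log2 fold change of 1.17 (standard error 0.65, edgeR adjusted p = 0.996). Among the *Prdm1*-CKO mice, *Blk* was highest in replicate 3 and lowest in replicate 2. *5830411N06Rik*, a scavenger receptor gene beside *Cd163l1*, had 23, 0 and 0 counts (CTL) against 14, 2 and 6 (*Prdm1*-CKO), the highest in CTL replicate 1 as for *Cd163l1*. Of 10 innate-like T cell genes, *Zbtb16* among them, all were tested, edgeR called 0, 4 had positive log2 fold changes, and the median was -0.06. The most abundant of them, the IL-2 receptor chain gene *Il2rb*, was at 496, 468 and 550 CPM against 498, 430 and 489 CPM. *Il18r1*, an IL-18 receptor chain gene, was at 20.0, 20.3 and 38.3 CPM against 35.4, 38.0 and 32.5 CPM, and its groups overlapped through CTL replicate 3.

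The IL-23 and IL-17 pathway list held 34 genes, of which 29 had a count, 21 were tested and edgeR called 0. Of the 21, 8 had positive log2 fold changes, beside 51.1% of all genes tested, and the median was -0.16. *Il23r* and *Il17re*, chosen for this separation, were the only genes on it whose groups did not overlap. The count was 2 of the 29 above and 0 below, beside 4.15% and 2.8% of all genes with a count. Nothing is read from the 2. Of the ligands, *Il17a*, *Il23a*, *Il25*, *Il17d* and *Il17b* were at 0 in each library, and *Il17c*, which encodes the ligand of IL-17RE, had 1, 8 and 0 counts against 1, 6 and 3. *Il12b*, which encodes the p40 chain shared by IL-12 and IL-23, was at 0 throughout CTL and was counted 4, 0 and 13 times in *Prdm1*-CKO Tfh. Of the signalling genes with the most counts, *Stat3* was at 383, 359 and 295 CPM against 362, 257 and 311 CPM, and *Il17ra* was at 428, 308 and 202 CPM against 375, 290 and 354 CPM. *Il6ra* and *Il6st*, the chains of the IL-6 receptor, had log2 fold changes of 0.01 (standard error 0.20) and -0.46 (standard error 0.47). None of these groups was separated. Among the other IL-17 receptor genes, *Il17rb* was at 3.11 to 13.1 CPM in CTL and 4.68 to 7.83 CPM in *Prdm1*-CKO mice, and *Il17rc*, the neighbour of *Il17re* on chromosome 6, had 10, 0 and 13 counts against 4, 2 and 19.

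The pattern of *Il23r* and *Il17re*, no more than 3 counts throughout CTL and over 3 throughout *Prdm1*-CKO, was shared by 134 genes, of which 56 were protein coding and 4 were immunoglobulin or TCR segments. Its mirror image was found in 12 genes. With the libraries thinned to equal totals, the numbers were 79 and 36, and without CTL replicate 2 they were 184 and 68, with *Il23r* and *Il17re* included each time. The CTL libraries were mostly the shallower ones, at 7147601 to 14177558 counts against 9753574 to 16973392. CTL replicate 2 also had the fewest genes with a count, and thinning sets equal totals only. The part of either in these numbers was not tested. By the distance of log2 CPM over the 6 mice, the genes nearest to *Il23r* among the 134 were *Gm10655*, *Adam12*, *Serpina12*, *Spata21* and *Pcdhga2*, at distances from 0.609 to 0.999, and *Il17re* ranked 32 at 1.79. Those nearest to *Il17re* were *Serpina12*, *Il23r*, *Adam12*, *B4galt6* and *Khdc3*, at 1.69 to 1.97. All 134 genes share the group pattern of *Il23r* and *Il17re* by selection, and the distance also depends on level. These ranks therefore do not measure whether genes vary together. *Adam12* was at 0 throughout CTL and was counted 10, 17 and 21 times in *Prdm1*-CKO Tfh. *Gm10655*, a lincRNA, had 2, 0 and 0 against 12, 25 and 10. None of the other 7 genes of the set was among the 134.

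Markers of other cell types also differed in level between the mice. B cell markers summed to 925, 341 and 998 CPM in CTL and to 933, 1168 and 1569 CPM in *Prdm1*-CKO mice, with 12 of 12 log2 fold changes positive and a median of 0.83. Macrophage markers summed to 4858, 2265 and 3473 CPM against 4705, 3955 and 4780 CPM, with 10 of 10 positive and a median of 0.45. Over all genes tested, 51.1% were positive. CTL replicate 2 had the lowest sum of both lists. Group 3 innate lymphoid cell markers, which include *Il23r* and *Il1r1*, summed to 339, 482 and 400 CPM against 303, 377 and 382 CPM. For dendritic cell markers the ranges were 55.3 to 114 CPM and 83.7 to 124 CPM. CD8 and NK cell markers summed to 239 to 317 CPM in CTL and 202 to 233 CPM in *Prdm1*-CKO mice, plasma cell markers to 434 to 673 CPM and 675 to 896 CPM, and erythroid markers to 5.92 to 16.7 CPM and 10.9 to 43.1 CPM. Alpha-beta T cell markers summed to 4623 to 5495 CPM and 4665 to 4742 CPM, regulatory T cell markers to 910 to 1042 CPM and 836 to 944 CPM, and basophil and mast cell markers to 31.4 to 90.9 CPM and 39.8 to 50.8 CPM. Of 8 stromal and epithelial markers, *Pdgfra*, *Col3a1*, *Dcn* and *Krt8* were at 0 in all mice. Their part in the *Il23r* and *Il17re* levels was not tested. *Prdm1*-CKO replicate 2, the highest for *Il23r*, was the middle mouse of its group for B cell and plasma cell markers and the lowest for macrophage markers. The summed type 17, alpha-beta T cell, and CD8 and NK cell lists had the order of *Il23r* among the *Prdm1*-CKO mice. So did 20.7% of all genes tested. The other lists did not, those of innate-like and regulatory T cells among them. The type 17 sum includes *Il23r* and *Il17re* and is mostly *Rora*. The alpha-beta T cell sums of these mice were close, 4665 to 4742 CPM. Nothing is read from these orders, and the source of the *Il23r* reads was not tested.

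**Figure D4:**
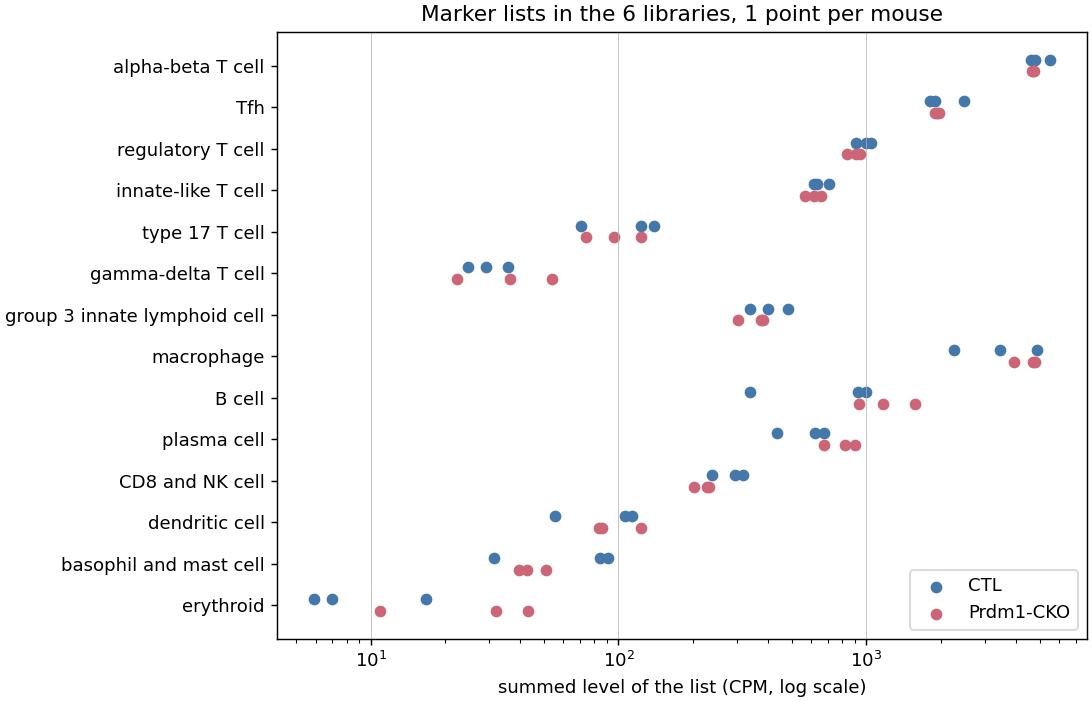
Summed level in CPM (horizontal axis, log scale) of 14 marker lists (vertical axis), 1 point per mouse, CTL blue and *Prdm1*-CKO red. The gamma-delta list spans 24.7 to 36.0 CPM in CTL and 22.3 to 54.0 CPM in *Prdm1*-CKO mice, and the type 17 list 70.3 to 139 CPM and 73.8 to 123 CPM. Most of the type 17 sum is *Rora*, and the gamma-delta sum includes *Blk*, which B cells also express, so the sums do not measure amounts of these cells.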

How the data were processed

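Sorted splenic Tfh from each of 3 CTL and 3 *Prdm1*-CKO mice gave 1 Smart-seq2 library, sequenced as paired reads. The authors deposited raw counts per gene, made with featureCounts on GRCm38 and without normalization. The submitters' processing notes name STAR 2.4.2a and DESeq2. Strand, multiply aligned reads and the counting of mates are not given in the sources used here. Symbols and coordinates came from GENCODE M21, which held 53274 of 53379 identifiers, 50604 in the same version, and coordinates are printed for these only. The identifier of *Ccr6* was in another version.

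Groups came from the sample labels. Counts were scaled by TMM, filtered by filterByExpr and tested with the quasi-likelihood F test of edgeR 4.0.16 in R 4.3.3, without covariates, with Benjamini-Hochberg adjustment over 14555 genes. Alternatives were DESeq2 1.42.0, its size factors, no filter, at least 10 counts in every library, a replicate block, thinning to the smallest total and each mouse left out. Summing *Trgv* and *Trgj* genes and leaving CTL replicate 2 out of the count of genes with the *Il23r* pattern were added after seeing the data. Log2 CPM used a prior count of 2. P-values measure the spread between these mice. The fits were tested on simulated data.

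The genes described and all lists were chosen with earlier results of these data known. Values are given for the 9 genes, *Prdm1*, up to 4 genes of each list with the highest mean CPM or with at most 3 counts in every library of 1 group, every gamma or delta segment with over 3 counts, and the 5 genes nearest to *Il23r* and to *Il17re*. Genes named beyond this rule were the partner chains *Il12rb1* and *Il17ra* and the genes *Il17c*, *Il17rb*, *Il17rc*, *Cxcr5*, *Il18r1* and *5830411N06Rik*, chosen after their values were seen. Of the list genes, 1 is not reported here by itself and stays in the fits and list counts.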

Additional observations from a re-analysis of the deposited data

How the results depend on the processing

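*Il23r* and *Il17re* lay above CTL in every *Prdm1*-CKO mouse also with DESeq2's size factors and after thinning. They were chosen on this separation, so these settings are no support for it, and leaving out a mouse cannot undo it. Leaving out each mouse in turn, the number of the 9 genes with all *Prdm1*-CKO mice below CTL ranged from 0 to 1. Over all genes, DESeq2's Wald test gave 7 calls up and 2 down at an adjusted p under 0.05, with 264 up and 417 down unadjusted, while edgeR without a filter gave 1 call up, with 426 up and 510 down unadjusted. Leaving out each mouse, edgeR placed 58 to 580 genes up and 107 to 617 down at an unadjusted p below 0.05. It called 0 at an adjusted p in each of those fits.

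The log2 ratio of the summed gamma and delta segments, -0.13 with all mice, ranged from -0.43 to 0.07 with a mouse left out: it was 0.065 without CTL replicate 3, 0.0055 without *Prdm1*-CKO replicate 1 and 0.04 without *Prdm1*-CKO replicate 2. The log2 fold change of *Zbtb16* turned positive with thinning (0.020) and without CTL replicate 1 (0.26), CTL replicate 3 (0.11) or *Prdm1*-CKO replicate 1 (0.11), and its lowest value was -0.40, without CTL replicate 2. That of *Trdc* turned positive without CTL replicate 2 (0.66) or *Prdm1*-CKO replicate 1 (0.03), with a lowest value of -0.55, and that of *Tcrg-C1* without CTL replicate 2 (0.13), with a lowest value of -0.64. Those of *Ccr6* and *Il1r1* stayed negative with a mouse left out, from -0.76 to -0.15 and from -0.75 to -0.10. The causes were not tested. *Trdc* and *Tcrg-C1* have no value with at least 10 counts in every library. The thinned difference in mean CPM of *Cd163l1* was 0.228 against 0.0294.

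Same-numbered CTL and *Prdm1*-CKO mice had correlations of their deviations of 0.158, 0.0282 and 0.0160, and 4 of 6 libraries were closest to their own number, a hint from the data. The correlation was not over 0.1 in every pair and no label ties the numbers, so they were not treated as pairs. With the replicate block, 175 genes were up and 196 down at an unadjusted p below 0.05 and 0 at an adjusted p, and the log2 fold changes were 0.087 for *Zbtb16* and 0.044 for *Trdc*.

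Depth limits *Sox13*, *Cd163l1* and most V segments, which lay at or near the floor of 3 counts.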

Other observations

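Cytokine genes that act upstream of *Il23r* and of IL-17 in T cells were counted in these libraries. The libraries also held macrophage markers, and which cells the cytokine reads came from was not tested. *Il1b*, which encodes a ligand of IL-1R1, was at 50.4, 8.29 and 27.1 CPM in CTL and at 50.0, 41.0 and 60.4 CPM in *Prdm1*-CKO libraries. Its log2 fold change was 0.81 (standard error 0.53, edgeR adjusted p = 0.996). *Il6* was at 4.93, 8.06 and 0.296 CPM against 1.13, 2.44 and 3.08 CPM, a log2 fold change of -1.01 (standard error 0.94, edgeR adjusted p = 0.996). The groups overlapped for both genes. *Ncr1*, a receptor gene of NK cells and of some group 3 innate lymphoid cells, was at 6.17, 13.7 and 16.1 CPM against 6.14, 4.37 and 8.83 CPM. Its log2 fold change was -0.89 (standard error 0.47, edgeR adjusted p = 0.996). Of the 8 group 3 innate lymphoid cell markers, 6 were tested and edgeR called 0. These 3 genes were chosen after their values were seen.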
